A study of Homo sapiens with 9 samples.

Results

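In MDA-MB-231 cells, 250 genes had lower RNA levels in viscous medium than in standard medium and lower levels still in viscous medium when *TRPV4* was knocked down. They were selected on these same measured values from the 13177 genes with a mean of at least 1 CPM (counts scaled to a total of 1e6 per sample) in scramble control (SC) cells at 0.77 cP, out of 60664 genes listed. A gene was taken when its mean in SC cells dropped at least 1.2-fold from 0.77 to 8 cP, and when its mean at 8 cP was again at least 1.2-fold lower in shTRPV4 cells, with no overlap of the 3 samples of neighbouring groups. The first difference is called the viscosity step and the second the knockdown step. Since the choice used all 9 samples, the levels and ratios of the members are a description, and no test of them is given. The steps share the 3 samples of SC cells at 8 cP, so a low or high value there moves them in opposite directions.

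MDA-MB-231 is a human breast cancer cell line of mesenchymal, triple-negative type. The 3 groups, each with 3 samples taken on day 6, were cells with a scramble hairpin RNA (labelled wild type) in medium of 0.77 cP, the same SC cells in medium of 8 cP, and cells with a hairpin against *TRPV4*, a calcium-permeable channel of the cell membrane, in medium of 8 cP. All groups thus carried a hairpin construct, and viscosity was raised with methylcellulose, which the medium of 0.77 cP lacked. Knockdown cells at 0.77 cP are not analysed here, so the knockdown step was measured in viscous medium alone. The labels name no other hairpin against *TRPV4*, so loss of *TRPV4* and other effects of this hairpin cannot be told apart at that step. Nothing in the labels says that the 3 samples of a group came from separate cultures, and p-values given for genes outside the set therefore measure only the spread between these samples. In bulk RNA, a smaller share of cells that express a gene and less of its RNA per cell cannot be told apart.

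Several members belong to programmes that are well known from other settings. Immediate early genes such as *EGR1* and *JUN* encode transcription factors that are made within minutes of a signal, often downstream of calcium, MAP kinases and serum response factor, and their messengers are short-lived. Hypoxia-inducible factors switch on genes for glucose uptake, glycolysis, pH control and mitophagy when oxygen is low. The circadian clock is a transcriptional loop in which PER and CRY proteins repress CLOCK and BMAL1, and PAR-bZIP factors such as DBP and TEF carry the rhythm to output genes.

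The total counts lay between 64571681 and 103518036 per sample. In SC cells *TRPV4* had 40, 28 and 54 counts at 0.77 cP and 64, 45 and 24 counts at 8 cP, and shTRPV4 cells had 7, 1 and 13, so the targeted gene was scarce in all groups and lowest in the cells labelled as its knockdown. Of the markers of the line, *VIM*, *CD44*, *EGFR*, *KRT18*, *KRT8*, *CAV1* and *AXL* were abundant, with a summed level between 5588 and 6146 CPM over the 9 samples. *ESR1*, *PGR*, *CDH1* and *KRT5* stayed at or below 0.133 CPM in every sample, while *ERBB2*, *ERBB3*, *EPCAM* and *GATA3* were detected. The samples of a group did not lie at the same height. Replicate 3 was the lowest of the SC samples at 0.77 cP for 190 of the 250 members (76.0%) and the lowest of the SC samples at 8 cP for 177 (70.8%), and replicate 1 was the lowest of the shTRPV4 samples for 159 (63.6%). Among all 13177 genes the same samples were the lowest for 34.9%, 36.9% and 34.6%. The part of this in the members' values was not tested. Without replicate 3 of the SC cells at 0.77 cP the rule took 333 genes, all 250 members among them, and without replicate 3 of the SC cells at 8 cP it took 292, of which 208 were members.

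**Figure D1:**
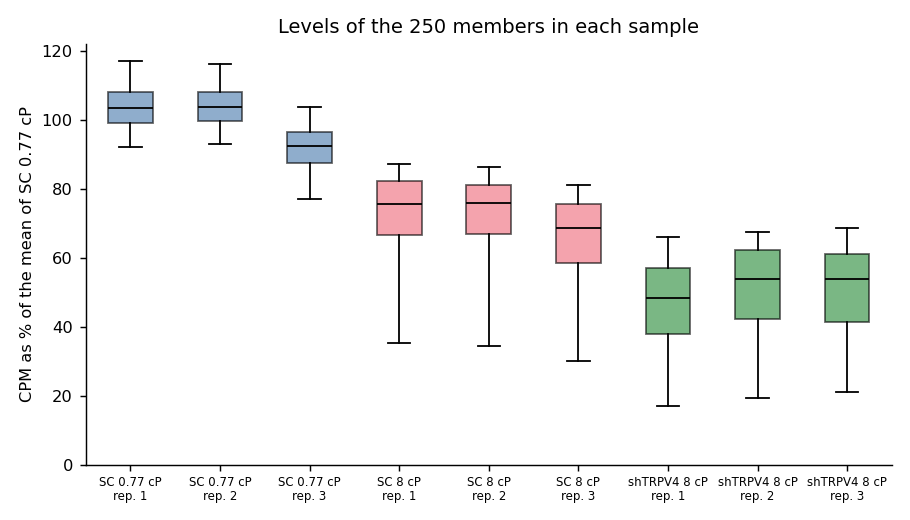
Level of the 250 members in each of the 9 samples, as a percentage of the gene's mean in SC cells at 0.77 cP. Boxes span the quartiles with the median as a line, and whiskers reach from the 5th to the 95th percentile of the members. The medians were 103.5%, 103.7% and 92.6% in SC cells at 0.77 cP, 75.8%, 75.9% and 68.8% in SC cells at 8 cP and 48.5%, 53.9% and 54.0% in shTRPV4 cells.

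Most members were lowered by a moderate amount at each step. The ratio of means at the viscosity step had a median of 1.37 and a range of 1.202 to 14.04, and that at the knockdown step a median of 1.36 and a range of 1.201 to 5.19. Among all 13177 genes the medians were 0.994 and 0.985. From the highest to the lowest group the ratio had a median of 1.91, with 114 members at 2 or more and 13 at 5 or more. Only 36 members reached a ratio of 1.5 at both steps, and 6 reached 2 at both. The larger log2 fall lay at the viscosity step for 134 members and at the knockdown step for 116. Of the 13177 genes, 1298 (9.85%) met the conditions at the viscosity step, 983 (7.46%) those at the knockdown step and 250 (1.90%) both. All 250 members passed edgeR's filter on low counts, which the minimum of 1 CPM makes nearly certain. In the quasi-likelihood test of edgeR, adjusted by the Benjamini-Hochberg method, 191 members were under an adjusted p of 0.05 and lower at both steps, as were 431 (2.36%) of all 18264 genes tested, and nothing is read from this because the rule used the same contrasts. The counts for all genes at the viscosity step were 1770 lower (9.69%) and 1748 higher (9.57%), and at the knockdown step 2002 lower (11%) and 1647 higher (9.02%). These shares are the background for the genes outside the set that are described below.

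**Figure D2:**
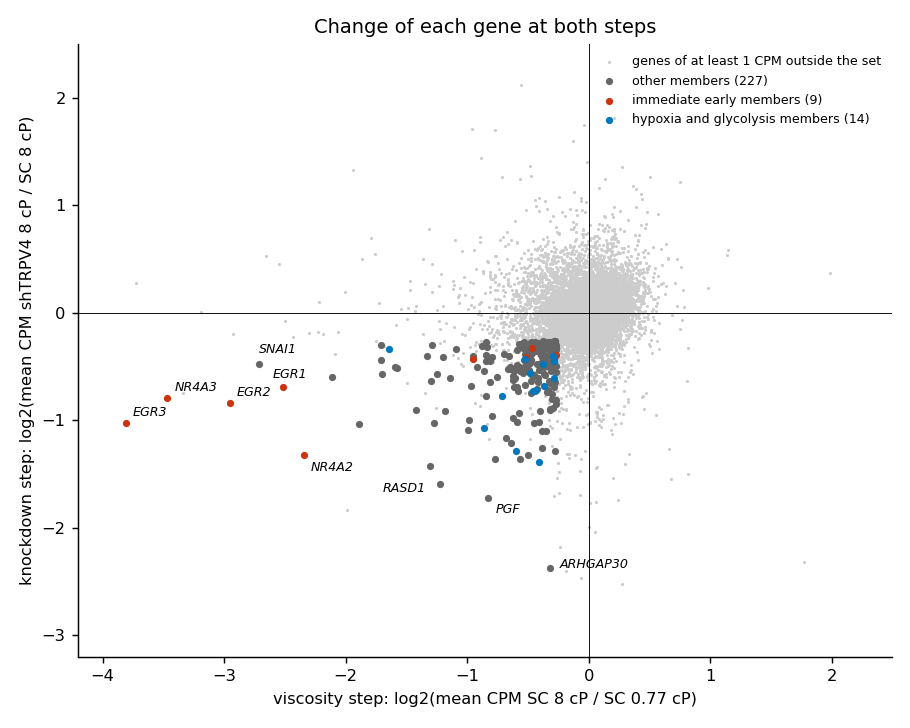
Log2 ratio of mean CPM at the viscosity step (horizontal axis) and at the knockdown step (vertical axis) for the 250 members and for 12923 of the other genes with at least 1 CPM, with 4 genes beyond the axes. Members fill the lower left corner by construction, with the immediate early members reaching far to the left and the hypoxia and glycolysis members lying closer to the vertical axis.

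At the limits of the rule the members blended into the other genes. *FBLN7* and *FKBP8* were just inside at the viscosity step with ratios of 1.202 and 1.203, while *SIGIRR* (1.199) and *IL17RE* (1.198) were just outside. At the knockdown step *TEF* (1.201) and *PLEKHA2* (1.202) were just inside, and *KRT81* (1.1997) and *IL11* (1.1997) were just outside. A further 107 genes met the rest of the rule with a ratio of 1.1 to 1.2 at the viscosity step, and 80 did so at the knockdown step.

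The most strongly lowered members were immediate early genes. *EGR1*, which encodes a zinc finger transcription factor (chromosome 5, 138465479 to 138469303 in GRCh38), had 462, 525 and 514 CPM in SC cells at 0.77 cP, 87.01, 82.99 and 93.1 CPM in SC cells at 8 cP and 37.9, 55.2 and 69.6 CPM in shTRPV4 cells. The means were 500.4 ± 33.7, 87.7 ± 5.103 and 54.2 ± 15.9 CPM (SD, n = 3), which gives ratios of 5.71-fold and 1.62-fold at the viscosity and knockdown steps. The samples of SC cells at 0.77 cP stood far above all others, while the lowest SC sample at 8 cP and the highest shTRPV4 sample were separated by a small gap. Its relative *EGR3* had 6.08, 9.14 and 6.598 CPM in SC cells at 0.77 cP, 0.514, 0.493 and 0.547 CPM in SC cells at 8 cP and 0.167, 0.285 and 0.3104 CPM in shTRPV4 cells, with ratios of 14.04-fold and 2.04-fold, the largest viscosity ratio of the set. *EGR2*, of whose exon bases 145 also belong to a second gene of the same strand, was at 3.09, 6.12 and 4.32 CPM, then 0.675, 0.534 and 0.536 CPM, then 0.456, 0.273 and 0.244 CPM in the same order of groups. For both, the values in shTRPV4 cells correspond to 15 to 41 counts per library, and counting alone adds to their spread. The orphan nuclear receptors *NR4A2* and *NR4A3* behaved alike in direction. *NR4A2* had 16.6, 20.9 and 14.8 CPM in SC cells at 0.77 cP, 3.76, 3.64 and 2.89 CPM in SC cells at 8 cP and 1.503, 1.17 and 1.45 CPM in shTRPV4 cells, with ratios of 5.08-fold and 2.495-fold, and *NR4A3* had means of 3.98 ± 0.576, 0.359 ± 0.0734 and 0.207 ± 0.0502 CPM (SD, n = 3), with ratios of 11.1-fold and 1.73-fold. For *NR4A3* this was 44, 32 and 28 counts in SC cells at 8 cP and 23, 12 and 19 in shTRPV4 cells, so counting adds to its spread too.

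The promoter of *EGR1* is shown because it carries the element through which serum response factor acts on early genes. The window runs from 250 bases before to 50 bases after the RefSeq start (GRCh38.p14), 5′ to 3′ on the strand of the gene. Capitals mark matches to the CArG box, searched on both strands.
EGR1 promoter (chr5:138465229-138465528, strand plus): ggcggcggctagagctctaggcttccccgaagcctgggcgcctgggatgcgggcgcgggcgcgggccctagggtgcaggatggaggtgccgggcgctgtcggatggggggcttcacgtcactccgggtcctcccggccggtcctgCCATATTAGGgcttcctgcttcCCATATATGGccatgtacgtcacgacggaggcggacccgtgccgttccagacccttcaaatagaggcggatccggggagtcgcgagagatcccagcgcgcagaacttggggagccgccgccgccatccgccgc
The matches begin 105 and 83 bases before the start. A CArG box was found in 1.29% of the 35116 promoters of the RefSeq table. Only 5 of the 9 immediate early members had a promoter there (*EGR3*, *NR4A2*, *MCL1* and *DUSP4* did not), so no share is given for the group, and only 188 of the 250 members (75.2%) had one, so a check of promoter features over the whole set is void.

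The remaining immediate early members were abundant and moved less. *JUN*, a subunit of AP-1, had 799, 768 and 651 CPM in SC cells at 0.77 cP, 397, 400.2 and 351 CPM in SC cells at 8 cP and 259, 277 and 316 CPM in shTRPV4 cells, with ratios of 1.93-fold and 1.35-fold. *MCL1*, an inhibitor of apoptosis with 328 exon bases shared on its strand, had means of 637 ± 23.9, 461 ± 8.51 and 368 ± 13.4 CPM (SD, n = 3), and the MAP kinase phosphatase *DUSP4* had 588 ± 36.5, 487 ± 27.97 and 371 ± 9.53 CPM (SD, n = 3). *KLF2*, a zinc finger factor known from endothelial shear responses, was at 45.1, 45.4 and 43.7 CPM, then 32.1, 31.01 and 30.8 CPM, then 22.9, 24.2 and 23.7 CPM in the same order of groups, with ratios of 1.43-fold and 1.33-fold. Together 9 of the 38 immediate early genes with at least 1 CPM were members (23.7%), against 1.90% of all genes and 5.48% of the genes of all lists. The lists had been written with results of these samples known, so this share and those of the lists below are descriptions, not tests. The larger log2 fall lay at the viscosity step for 8 of the 9 immediate early members, *DUSP4* being the exception. Of the 29 tested genes of the list outside the set, 24 were lower and 1 was higher at the viscosity step, whereas 6 were lower and 3 higher at the knockdown step. *NR4A1*, the third receptor of that family, fell at the viscosity step (log2 change -5.13, standard error 0.116, adjusted p = 1.31e-13 in edgeR) and rose at the knockdown step (log2 change 0.66, standard error 0.1398, adjusted p = 0.00382 in edgeR), so it did not follow *NR4A2* and *NR4A3*. Genes of the opposite strand overlap 754 of its exon bases. *FOS* and *FOSB*, which pair with JUN proteins, had log2 changes of -2.09 and -4.45 at the viscosity step but did not pass at the knockdown step (edgeR adjusted p = 0.05496 and 0.897). These were named after their values had been seen.

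**Figure D3:**
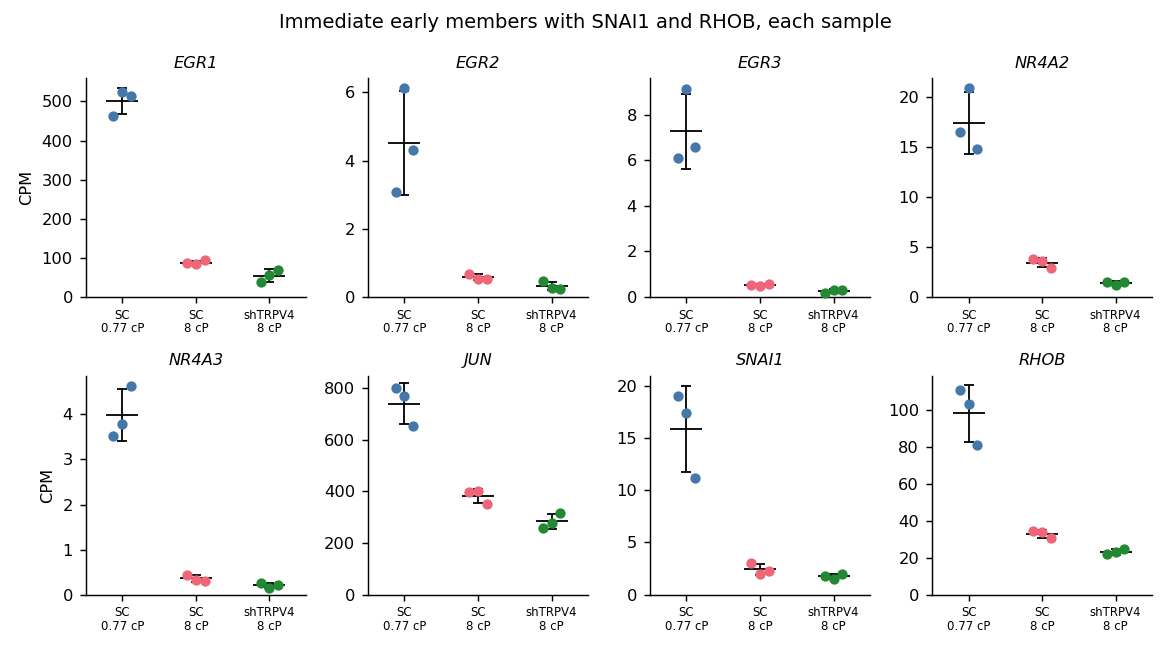
CPM of 6 immediate early members and of *SNAI1* and *RHOB* in each sample (points), with mean and SD (bars, n = 3) for the 3 groups. For *EGR1*, the SC samples at 0.77 cP lie between 462 and 525 CPM and all other samples at or below 93.1 CPM.

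Negative regulators of the same signals were in the set as well. *ERRFI1*, an inhibitor of the EGF receptor, was among the most abundant members, with 989.8 ± 69.3, 757 ± 27.2 and 615 ± 14.6 CPM (SD, n = 3) and ratios of 1.31-fold and 1.23-fold. *SPRY4*, a Sprouty antagonist of RAS signalling, had 149, 147 and 151 CPM in SC cells at 0.77 cP, 117, 109 and 108 CPM in SC cells at 8 cP and 74.9, 73.6 and 70.7 CPM in shTRPV4 cells, with the 3 samples of each group close together. *SPRED3* completed the 4 members of the MAP kinase feedback list, at 15.1 ± 1.04, 11.6 ± 0.534 and 9.55 ± 1.22 CPM (SD, n = 3). These were 16% of the 25 genes of the list with at least 1 CPM, against 1.90% of all genes and 5.48% of the genes of all lists. Of the 21 tested genes of that list outside the set, 11 were lower and 1 was higher at the viscosity step, and 8 were lower and none higher at the knockdown step. *DUSP5* fell at the viscosity step alone (log2 change -1.54, standard error 0.0532, adjusted p = 2.22e-11 in edgeR, against an adjusted p of 0.948 at the knockdown step), and *DUSP6* fell mainly at the knockdown step (log2 change -0.57, standard error 0.05901, adjusted p = 8.55e-06 in edgeR). The growth factor *AREG*, a ligand of the EGF receptor, was a member with 279.9 ± 25.7, 156 ± 19.7 and 119 ± 15.2 CPM (SD, n = 3).

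Genes of the hypoxia response gave more members than any other list. Of its 29 genes with at least 1 CPM, 11 were members (37.9%, against 1.90% of all genes and 5.48% of the genes of all lists). For all of these members but *BHLHE40* the larger log2 fall lay at the knockdown step. *NDRG1*, a stress-induced metastasis suppressor, had 1110.2, 1053 and 947 CPM in SC cells at 0.77 cP, 805, 781 and 643 CPM in SC cells at 8 cP and 408, 546 and 558 CPM in shTRPV4 cells, with ratios of 1.395-fold and 1.47-fold. The shTRPV4 samples spread over a wider relative range than the SC samples and remained below all of them. A second gene of the same strand overlaps 753 of its exon bases. *BNIP3*, a receptor for mitophagy, had 837, 829 and 793 CPM in SC cells at 0.77 cP, 682, 733 and 602 CPM in SC cells at 8 cP and 380.01, 464 and 480.01 CPM in shTRPV4 cells, with ratios of 1.22-fold and 1.52-fold. *DDIT4*, an inhibitor of mTORC1, had means of 338 ± 36.7, 206 ± 12.5 and 121 ± 13.8 CPM (SD, n = 3) and ratios of 1.64-fold and 1.71-fold.

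The carbonic anhydrases *CA9* and *CA12*, which keep intracellular pH up in acid surroundings, were both members. *CA9* (chromosome 9, 35673928 to 35681159) had 16.2, 16.3 and 12.3 CPM in SC cells at 0.77 cP, 11.2, 10.9 and 7.59 CPM in SC cells at 8 cP and 3.35, 3.92 and 4.87 CPM in shTRPV4 cells, with ratios of 1.51-fold and 2.44-fold. Replicate 3 was the lowest of the SC samples at either viscosity for this gene. *CA12* had means of 64.7 ± 7.89, 47.9 ± 4.85 and 29.1 ± 3.46 CPM (SD, n = 3). The oxygen-sensing prolyl hydroxylase *EGLN3* and the small ankyrin protein gene *ANKRD37* had ratios of 1.29-fold and 1.39-fold and 1.29-fold and 1.61-fold. Genes of the opposite strand overlap 571 exon bases of *CA9* and 909 of *ANKRD37*, and the strand option of the counting is not given in the sources used here.

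The promoters of *CA9*, *ANKRD37* and *BNIP3* are shown because hypoxia-inducible factors bind a short core motif. The windows are as for *EGR1*. Capitals mark the core NCGTG with A or G as its first base, on either strand. The E-box, CACGTG, contains this core.
CA9 promoter (chr9:35673678-35673977, strand plus): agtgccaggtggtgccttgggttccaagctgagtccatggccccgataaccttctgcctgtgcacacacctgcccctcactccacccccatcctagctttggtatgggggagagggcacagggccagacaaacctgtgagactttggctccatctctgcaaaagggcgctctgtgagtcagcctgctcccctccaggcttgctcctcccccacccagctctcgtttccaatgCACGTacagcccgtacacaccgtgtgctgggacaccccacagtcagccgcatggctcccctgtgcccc
ANKRD37 promoter (chr4:185396591-185396890, strand plus): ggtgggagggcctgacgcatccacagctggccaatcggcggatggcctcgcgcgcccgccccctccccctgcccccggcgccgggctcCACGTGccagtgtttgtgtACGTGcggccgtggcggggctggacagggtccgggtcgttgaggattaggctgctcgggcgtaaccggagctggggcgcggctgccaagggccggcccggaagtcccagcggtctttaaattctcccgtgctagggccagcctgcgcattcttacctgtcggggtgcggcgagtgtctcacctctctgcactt
BNIP3 promoter (chr10:131981874-131982173, strand minus): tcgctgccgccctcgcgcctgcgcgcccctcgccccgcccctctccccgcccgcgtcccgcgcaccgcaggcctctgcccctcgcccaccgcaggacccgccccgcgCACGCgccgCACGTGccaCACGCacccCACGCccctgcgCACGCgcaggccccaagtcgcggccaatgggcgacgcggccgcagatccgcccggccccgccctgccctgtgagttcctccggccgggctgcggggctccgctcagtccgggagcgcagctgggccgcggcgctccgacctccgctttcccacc
The window of *CA9* held 1 match, 18 bases before the start, that of *ANKRD37* 3 and that of *BNIP3* 6, some of them on both strands of the same bases. Of the 11 hypoxia members 10 had a promoter in the table (*NDRG1* did not), with 11 windows in all, and 9 of these windows (81.8%) held the core, against 48.4% of all promoters. The longer CACGTG was found in 4 of the 11 windows (36.4%), against 7.26% of all promoters. The core was at least as frequent in windows of members from 4 of the other lists, with 7 of 8 for the clock, 5 of 5 for glycolysis, 5 of 6 for the TGF-β and BMP pathway and 3 of 3 for p53 targets, so it does not set the hypoxia members apart. *BHLHE40*, *PFKFB3* and *PFKFB4* count in more than 1 of these lists. The GC box, GGGCGG on either strand, stood in 72.7% of the hypoxia windows, against 45.0% of all promoters. It stood in 100% of the glycolysis and 87.5% of the clock windows, and CACGTG stood in 40% and 50% of these. Both motifs were less frequent in the windows of some other lists. Neither of them sets the hypoxia members apart. Matches are letters in a window, not sites shown to be bound.

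Genes of glycolysis overlapped with this group. *PGK1*, phosphoglycerate kinase 1, was the member with the highest CPM, with 2222, 2234 and 2094 CPM in SC cells at 0.77 cP, 1858, 1882 and 1636 CPM in SC cells at 8 cP and 1158, 1390.3 and 1386 CPM in shTRPV4 cells and ratios of 1.22-fold and 1.37-fold. *PFKFB3* and *PFKFB4*, which make the activator of phosphofructokinase, had means of 149.8 ± 1.25, 122.5 ± 4.76 and 92.5 ± 2.15 CPM and of 82.9 ± 3.34, 60.3 ± 7.19 and 36.3 ± 4.64 CPM (SD, n = 3). For *PFKFB4*, 298 exon bases belong to a second gene of the same strand as well. The neuronal-type glucose transporter *SLC2A3* had ratios of 1.44-fold and 1.35-fold, and the aldolase *ALDOC* ratios of 1.81-fold and 2.098-fold from a mean of 11.3 ± 1.58 CPM (SD, n = 3). Of the 26 genes of the list with at least 1 CPM, 5 were members (19.2%, against 1.90% of all genes and 5.48% of the genes of all lists). Of the 23 tested glycolysis genes outside the set, 5 were lower and 1 was higher at the viscosity step, whereas 15 were lower and 2 higher at the knockdown step. *ENO2* fell at both steps (log2 change -0.24, standard error 0.0536, adjusted p = 0.00665 and log2 change -0.34, standard error 0.0538, adjusted p = 0.000414 in edgeR) and missed the rule at the viscosity step alone, where its mean went from 219 to 185 CPM. *PFKFB2*, a relative of *PFKFB3* and *PFKFB4*, rose at both (log2 change 0.23, standard error 0.0622, adjusted p = 0.0197 and log2 change 0.60, standard error 0.06102, adjusted p = 7.43e-06 in edgeR). Among the 19 tested hypoxia genes outside the set, 7 were lower and none higher at the viscosity step, and 9 were lower and 1 was higher at the knockdown step. *EPAS1*, which encodes HIF-2α, fell at both steps (log2 change -0.64, standard error 0.129, adjusted p = 0.00386 and log2 change -0.49, standard error 0.1302, adjusted p = 0.0147 in edgeR). *P4HA1*, a collagen prolyl hydroxylase, had the smallest adjusted p at the knockdown step (log2 change -0.60, standard error 0.0623, adjusted p = 8.95e-06 in edgeR). The list member *HIF1A* did not pass at either step (edgeR adjusted p = 0.186 and 0.168) and is named after its values had been seen.

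**Figure D4:**
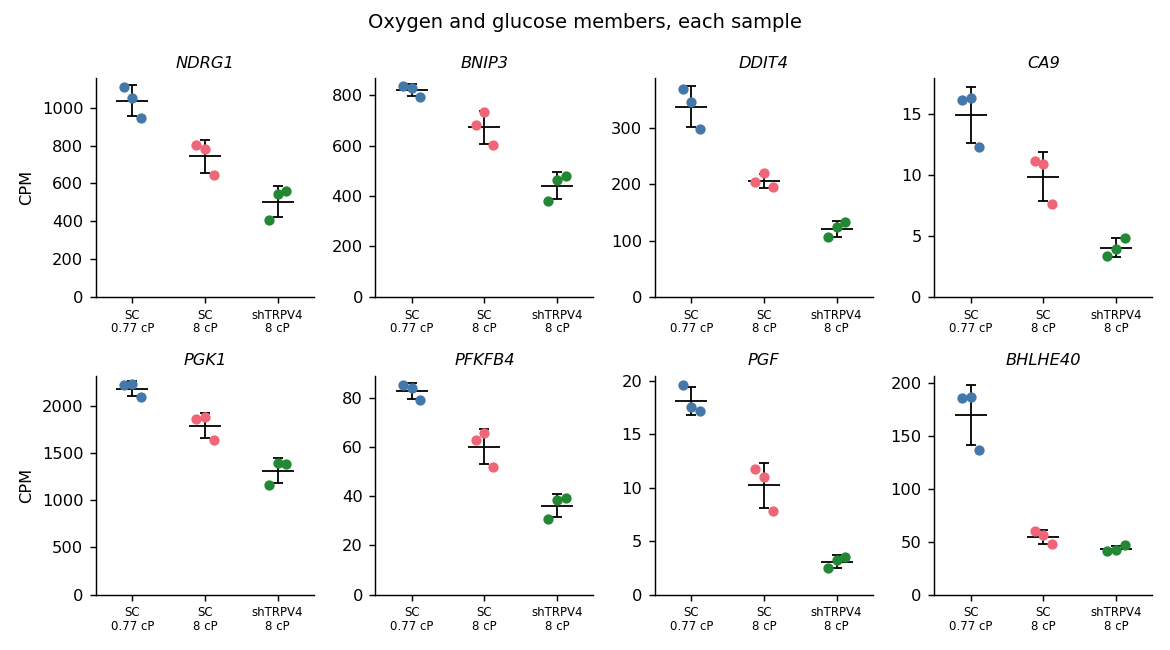
CPM of 8 members tied to oxygen, glucose or vessel growth in each sample (points), with mean and SD (bars, n = 3). The steps are of similar height for most genes, from 1037 to 743 and 504 CPM for *NDRG1*, whereas *BHLHE40* drops mainly at the viscosity step.

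A further 7 members that are linked to hypoxia but stood in no list for it were grouped after the members were known. *PGF*, placental growth factor, a ligand of the VEGF receptor FLT1, had 19.6, 17.5 and 17.2 CPM in SC cells at 0.77 cP, 11.8, 10.95 and 7.85 CPM in SC cells at 8 cP and 2.45, 3.26 and 3.55 CPM in shTRPV4 cells, with ratios of 1.77-fold and 3.31-fold. Its shTRPV4 samples lay far below every SC sample. *MIR210HG*, the host transcript of miR-210, *FAM162A*, *SPAG4*, *PPFIA4*, *C4orf3* and the glucose transporter gene *SLC2A14* had total ratios between 1.53 and 2.27. *SLC2A14* is a near copy of *SLC2A3*, and reads can be divided between the pair, so its value is uncertain.

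Of the 18 clock genes with at least 1 CPM, 6 were members (33.3%, against 1.90% of all genes and 5.48% of the genes of all lists). *PER1*, a core repressor of the clock (chromosome 17, 8140472 to 8156506), had 16.1, 16.96 and 14.6 CPM in SC cells at 0.77 cP, 8.93, 9.02 and 8.54 CPM in SC cells at 8 cP and 7.85, 6.58 and 7.47 CPM in shTRPV4 cells, with ratios of 1.797-fold and 1.21-fold. *BHLHE40*, which represses the same E-boxes and also stands in the hypoxia list, had 185, 187 and 137 CPM in SC cells at 0.77 cP, 59.7, 56.1 and 47.5 CPM in SC cells at 8 cP and 40.8, 41.8 and 46.6 CPM in shTRPV4 cells, with ratios of 3.12-fold and 1.26-fold. *RORA*, a nuclear receptor that activates *BMAL1*, showed the opposite balance, with 3.09 ± 0.179, 2.33 ± 0.475 and 0.887 ± 0.0642 CPM (SD, n = 3) and ratios of 1.33-fold and 2.62-fold. The PAR-bZIP factors *DBP* and *TEF* had ratios of 1.29-fold and 1.38-fold and 1.21-fold and 1.201-fold, and *NFIL3*, which competes for their sites, had 35.2 ± 2.02, 29.3 ± 0.4801 and 23.8 ± 1.595 CPM (SD, n = 3). Of the 13 tested clock genes outside the set, 4 were lower and 2 higher at the viscosity step and none passed at the knockdown step in edgeR at an adjusted p of 0.05. *NR1D1*, which encodes REV-ERBα, fell at the viscosity step (log2 change -0.45, standard error 0.0656, adjusted p = 0.00045 in edgeR), whereas its relative *NR1D2* did not pass at either step (adjusted p = 0.601 and 0.0665).

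The promoter of *PER1* is shown for the E-box through which CLOCK and BMAL1 act. Capitals mark CACGTG, which is its own reverse complement.
PER1 promoter (chr17:8152355-8152654, strand minus): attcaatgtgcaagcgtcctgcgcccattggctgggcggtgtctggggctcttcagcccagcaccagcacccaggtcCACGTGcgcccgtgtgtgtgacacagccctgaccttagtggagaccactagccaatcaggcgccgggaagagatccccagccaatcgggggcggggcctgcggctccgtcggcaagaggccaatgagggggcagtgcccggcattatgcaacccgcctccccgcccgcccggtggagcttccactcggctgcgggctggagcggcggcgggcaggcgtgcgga
The match begins 173 bases before the start. All 6 clock members had a promoter in the table, with 8 windows in all, and the E-box was found in 4 of the 8 (50%), from *PER1*, *BHLHE40* and *TEF*, against 7.26% of all promoters. No share is given for clock genes outside the set, so nothing is read from this about the fall of the members.

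The cholesterol list gave 3 members of 33 genes with at least 1 CPM (9.09%, against 1.90% of all genes and 5.48% of the genes of all lists). Each had the larger log2 fall at the viscosity step. *INSIG1*, which holds the sterol sensor SCAP in the endoplasmic reticulum, had 134, 119.8 and 81.9 CPM in SC cells at 0.77 cP, 35.5, 37.02 and 29.9 CPM in SC cells at 8 cP and 25.1, 24.8 and 25.5 CPM in shTRPV4 cells, with ratios of 3.27-fold and 1.36-fold. Replicate 3 of SC cells at 0.77 cP was the lowest of its group and still above every other sample. *MYLIP*, a ubiquitin ligase induced by oxysterols, had ratios of 1.45-fold and 1.22-fold. Outside the lists with 3 or more members stood *SCD*, the stearoyl-CoA desaturase, with 325 ± 91.4, 132 ± 30.2 and 85.2 ± 17.98 CPM (SD, n = 3) and ratios of 2.45-fold and 1.56-fold, and *LIPG*, endothelial lipase, with 17.6 ± 4.91, 6.57 ± 1.17 and 3.51 ± 0.279 CPM (SD, n = 3). The balance was the other way for *LIPH*, a lipase that releases lysophosphatidic acid, with ratios of 1.21-fold and 1.56-fold and 30.04% of its log2 fall at the viscosity step. Of the 30 tested cholesterol genes outside the set, 18 were lower and 1 was higher at the viscosity step, and 6 were lower and 1 was higher at the knockdown step. *NSDHL*, an enzyme of sterol synthesis, rose at the knockdown step (log2 change 0.21, standard error 0.0483, adjusted p = 0.0061 in edgeR).

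The list of small GTPases and their regulators gave 3 members of 63 genes with at least 1 CPM (4.76%). The share was 1.90% for all genes and 5.48% for the genes of all lists, so this list did not stand out among the lists. The 3 members differed in where the fall lay. *RHOB*, an early response GTPase of endosomes, had 111, 103.5 and 81.1 CPM in SC cells at 0.77 cP, 34.7, 34.04 and 30.6 CPM in SC cells at 8 cP and 21.8, 23.1 and 24.8 CPM in shTRPV4 cells, with ratios of 2.98-fold and 1.42-fold. *RHOV*, an atypical GTPase, had 4.16 ± 1.199, 0.962 ± 0.21997 and 0.637 ± 0.0158 CPM (SD, n = 3), with ratios of 4.32-fold and 1.51-fold. *ARHGAP30*, a GTPase-activating protein (chromosome 1, 161046946 to 161069970), was the reverse, with 6.82, 5.9004 and 6.59 CPM in SC cells at 0.77 cP, 5.004, 5.37 and 5.15 CPM in SC cells at 8 cP and 1.302, 0.882 and 0.809 CPM in shTRPV4 cells and ratios of 1.24-fold and 5.19-fold, the largest knockdown ratio of the set. Its viscosity step accounted for 11.7% of the total log2 fall, the smallest share of any member. Of the 66 tested genes of this list outside the set, 6 were lower and 8 higher at the viscosity step, and 9 were lower and 5 higher at the knockdown step. *RND1* fell at the viscosity step (log2 change -2.18, standard error 0.252, adjusted p = 4.94e-05 in edgeR) and *ARHGAP45* at the knockdown step (log2 change -0.50, standard error 0.0717, adjusted p = 0.000172 in edgeR).

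Of the 34 integrin and focal adhesion genes with at least 1 CPM, 4 were members (11.8%, against 1.90% of all genes and 5.48% of the genes of all lists). *ITGB4*, the integrin subunit of hemidesmosomes, had 455, 432 and 410.1 CPM in SC cells at 0.77 cP, 347, 331 and 293 CPM in SC cells at 8 cP and 257, 260.3 and 272 CPM in shTRPV4 cells, with ratios of 1.34-fold and 1.23-fold. *TNS2*, a tensin of focal adhesions, had 63.7 ± 4.22, 52.1 ± 4.01 and 42.6 ± 3.24 CPM (SD, n = 3), and the collagen-binding integrin gene *ITGA10* had 3.79 ± 0.854, 2.11 ± 0.275 and 1.23 ± 0.307 CPM (SD, n = 3). *ITGB2*, the β2 subunit of leukocyte integrins, had 14.1, 14.8 and 14.5 CPM in SC cells at 0.77 cP, 11.1, 11.8 and 10.02 CPM in SC cells at 8 cP and 5.23, 5.88 and 6.38 CPM in shTRPV4 cells, with ratios of 1.32-fold and 1.88-fold. Of the 31 tested integrin and focal adhesion genes outside the set, 6 were lower and 3 higher at the viscosity step (5 were higher with DESeq2's Wald test), and 5 were lower and 4 higher at the knockdown step. *ITGB1* did not pass at the viscosity step (edgeR adjusted p = 0.978) and fell at the knockdown step (log2 change -1.06, standard error 0.0463, adjusted p = 2.6e-09 in edgeR), while *ITGB3* fell at the viscosity step (log2 change -0.76, standard error 0.117, adjusted p = 0.000736 in edgeR) but has 2266 exon bases in common with a gene of the same strand.

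Genes more often read in blood and vessel cells were also present. Besides *ITGB2* these were *ARHGAP30*, *FERMT3*, *MYO1F* and *PECAM1*, picked out after the members were known. *PECAM1*, an adhesion molecule of endothelium and platelets, had 5.01 ± 1.13, 2.73 ± 0.301 and 2.21 ± 0.215 CPM (SD, n = 3), and *FERMT3*, a kindlin of blood cells, had 3.38 ± 0.275, 1.89 ± 0.0627 and 1.52 ± 0.162 CPM (SD, n = 3). The 12 leukocyte markers summed to 11.6 to 12.9 CPM in SC cells at 0.77 cP and 10.3 to 11.5 CPM in SC cells at 8 cP. In shTRPV4 cells their sum was 8.00 to 8.69 CPM. Of the 3 markers tested in edgeR, 1 was lower at the viscosity step, 1 at the knockdown step and 0 at both. Only *CD14* and *CSF1R* reached 1 CPM in any group, *PTPRC* stayed at or below 0.175 CPM, and *CD2*, *MS4A1* and *FCGR3A* had no count in any sample. The 10 fibroblast and endothelial markers, *PECAM1* included, summed to 20.1 to 23.7, 16.3 to 17.1 and 15.5 to 15.7 CPM, with *CDH5* at 0.0103 CPM in 1 sample and at 0 in the others.

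TGF-β and BMP pathway members were led by the inhibitors of differentiation. Of the 45 genes of this list with at least 1 CPM, 5 were members (11.1%, against 1.90% of all genes and 5.48% of the genes of all lists). *ID3*, which blocks E-protein factors, had 139.997, 129.995 and 111 CPM in SC cells at 0.77 cP, 90.9, 85.3 and 87.5 CPM in SC cells at 8 cP and 58.9, 59.7 and 66.8 CPM in shTRPV4 cells, with ratios of 1.45-fold and 1.42-fold. *ID2* and *ID4* were much scarcer, at 4.44 ± 0.633, 2.02 ± 0.335 and 1.32 ± 0.125 CPM and at 2.699 ± 0.241, 1.09 ± 0.0452 and 0.404 ± 0.0656 CPM (SD, n = 3), and *ID4* had ratios of 2.48-fold and 2.69-fold. *SMAD6*, an inhibitory SMAD, had 10.6 ± 0.889, 8.57 ± 0.135 and 4.91 ± 0.788 CPM (SD, n = 3), with ratios of 1.23-fold and 1.74-fold, and the ligand gene *TGFB3* had ratios of 1.25-fold and 1.38-fold. Of the 44 tested genes of this pathway outside the set, 5 were lower and 3 higher at the viscosity step (9 were lower with DESeq2's Wald test), and 14 were lower and 7 higher at the knockdown step. *GDF15*, a stress-induced ligand, fell at the viscosity step (log2 change -0.97, standard error 0.147, adjusted p = 0.000674 in edgeR), and *FSTL3*, an antagonist of activin, rose at the knockdown step (log2 change 0.53, standard error 0.04395, adjusted p = 9.46e-07 in edgeR).

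Among Krüppel-like factors, *KLF9*, which responds to glucocorticoids, had 28.1, 32.3 and 24.6 CPM in SC cells at 0.77 cP, 19.3, 21.1 and 18.6 CPM in SC cells at 8 cP and 11.1, 13.2 and 12.7 CPM in shTRPV4 cells, and *KLF7* had 11.0003 ± 0.463, 8.59 ± 0.382 and 6.33 ± 0.493 CPM (SD, n = 3). With *KLF2* they made 3 of 19 factors with at least 1 CPM (15.8%, against 1.90% of all genes and 5.48% of the genes of all lists). Of the 16 others tested, 2 were lower and 2 higher at the viscosity step, and 6 were lower and 1 was higher at the knockdown step. *KLF10* fell at both (log2 change -1.19, standard error 0.0444, adjusted p = 4.61e-11 and log2 change -0.29, standard error 0.0443, adjusted p = 0.000342 in edgeR). *KLF17*, the scarcest of those named here, fell at the knockdown step (log2 change -1.33, standard error 0.186, adjusted p = 0.000148 in edgeR).

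Cell cycle brakes and death genes of the p53 list gave 3 members of 24 genes with at least 1 CPM (12.5%, against 1.90% of all genes and 5.48% of the genes of all lists). *CDKN1A*, which encodes the CDK inhibitor p21, had 220.3, 214 and 210.2 CPM in SC cells at 0.77 cP, 156, 152 and 155 CPM in SC cells at 8 cP and 124, 116 and 116 CPM in shTRPV4 cells, with ratios of 1.39-fold and 1.302-fold and narrow groups. *PMAIP1* and *BBC3*, which encode the BH3 proteins NOXA and PUMA, had 196 ± 12.2, 152 ± 6.99 and 102 ± 12.1 CPM and 16.3 ± 2.32, 11.6 ± 0.618 and 8.86 ± 2.03 CPM (SD, n = 3). Of the 24 tested p53 targets outside the set, 5 were lower and 3 higher at the viscosity step, and 6 were lower and none higher at the knockdown step. *CCNG1* was one that fell at the knockdown step (log2 change -0.35, standard error 0.0639, adjusted p = 0.00119 in edgeR). *DDIT3*, the stress factor CHOP, was a member outside these lists with 35.4 ± 2.499, 14.5 ± 0.947 and 11.7 ± 0.468 CPM (SD, n = 3), with 80.9% of its log2 fall at the viscosity step, and 413 of its exon bases are overlapped from the opposite strand.

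Interferon-stimulated members numbered 3 of 47 with at least 1 CPM (6.38%). The share was 1.90% for all genes and 5.48% for the genes of all lists, so this list did not stand out among the lists. *IFIT1*, which binds foreign RNA, had 126 ± 6.26, 91.7 ± 6.03 and 72.1 ± 9.14 CPM (SD, n = 3), *OASL*, a relative of the oligoadenylate synthetases, had 61.3 ± 5.205, 35.4 ± 1.66 and 26.6 ± 1.29 CPM (SD, n = 3), and the membrane protein gene *IFITM1*, with 351 exon bases shared on its strand, had ratios of 1.45-fold and 1.26-fold. Of the 45 tested genes outside the set, 14 were lower and 1 was higher at the viscosity step, and 12 were lower and none higher at the knockdown step. *IRF1* fell at the viscosity step (log2 change -0.69, standard error 0.0639, adjusted p = 3.5e-06 in edgeR) and *GBP3* at the knockdown step (log2 change -0.65, standard error 0.0509, adjusted p = 6.14e-07 in edgeR).

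**Figure D5:**
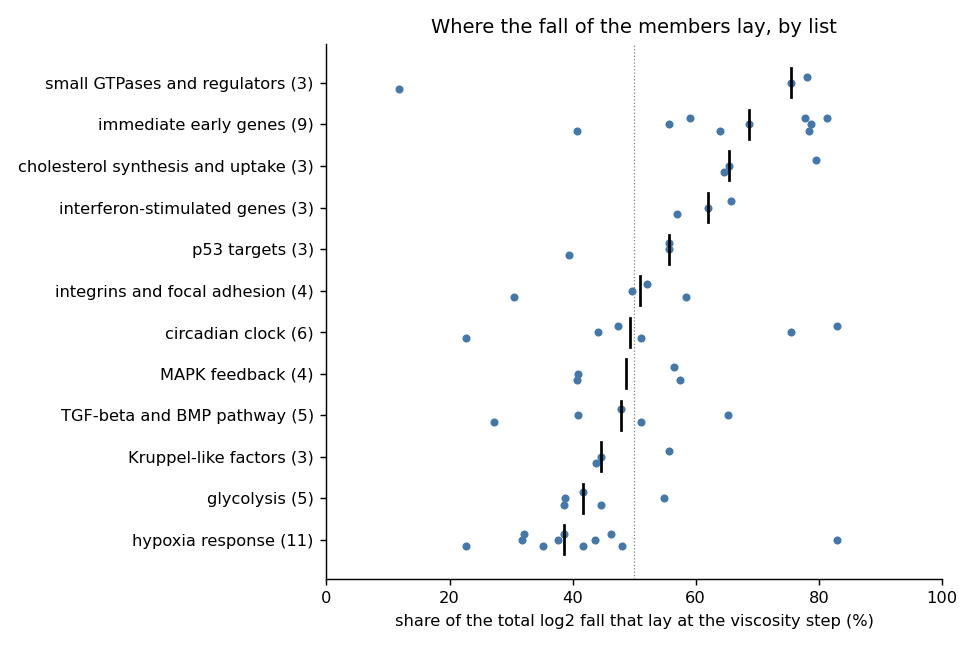
Share of the total log2 fall that lay at the viscosity step for each member (points) of the 12 lists with 3 or more members, with the median of the list (vertical bars) and the number of members in brackets. The immediate early list has a median of 68.7% and the hypoxia list one of 38.6%, against 50.9% for all 250 members.

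Of the 49 lists, 16 had no member. These included the lists of YAP and TAZ targets, SRF and MRTF targets, cytosolic ribosomal proteins, ribosome biogenesis, DNA replication, mitosis, the unfolded protein response, collagens and laminins, and the respiratory chain. A short list can lack a member at a share of 1.90%, and lacking one does not mean unchanged. Of 26 YAP and TAZ targets tested in edgeR, 6 were lower and 6 higher at each step. Of 23 SRF and MRTF targets, 7 were lower and 2 higher at the viscosity step, and 2 were lower and 6 higher at the knockdown step. In all, 81 members stood in a list and 169 did not. Among the 1479 list genes with at least 1 CPM, 5.48% were members, so the lists as a whole already held more than the 1.90% of all genes, and the lists had been written with results of these samples known.

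Members outside the described lists were sorted by known role after they had been seen. A group of 16 genes of cell cycle exit and starvation included the cyclin G2 gene *CCNG2*, the repressor *HBP1*, *KLHL24*, *YPEL5*, *TSC22D3*, the autophagy gene *GABARAPL1*, *MXD1*, an antagonist of MYC, and *SAT1*, the rate-limiting enzyme of polyamine breakdown. *CCNG2* had 73.4, 77.2 and 63.8 CPM in SC cells at 0.77 cP, 55.3, 59.3 and 54.1 CPM in SC cells at 8 cP and 29.5, 35.6 and 35.8 CPM in shTRPV4 cells, with ratios of 1.27-fold and 1.67-fold. *SAT1* had 134 ± 23.8, 56.4 ± 6.72 and 37.97 ± 4.56 CPM (SD, n = 3), with ratios of 2.38-fold and 1.49-fold, and *DEPP1*, a target of FOXO factors, had 13.7 ± 2.41, 6.86 ± 1.19 and 3.23 ± 0.507 CPM (SD, n = 3), with ratios of 1.99-fold and 2.13-fold. *DEPP1* lies inside *RASSF4* on the other strand, shares 695 exon bases, and both are members, so their counts may not be independent. The 16 genes had a median viscosity ratio of 1.403 and a median knockdown ratio of 1.29, beside 1.37 and 1.36 for all members.

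Transcription factors were scattered through the ranking. *SNAI1*, the Snail repressor of epithelial genes, had 19.04, 17.4 and 11.2 CPM in SC cells at 0.77 cP, 3.03, 1.99 and 2.24 CPM in SC cells at 8 cP and 1.76, 1.51 and 1.96 CPM in shTRPV4 cells, with ratios of 6.55-fold and 1.39-fold. It had the largest viscosity share of any member, 85.1%, and its SC samples at 0.77 cP varied widely around a mean of 15.9 ± 4.13 CPM (SD, n = 3). *CSRNP1*, a nuclear protein induced by AXIN1, had 79.4 ± 6.15, 24.3 ± 1.11 and 19.7 ± 0.925 CPM (SD, n = 3), with ratios of 3.26-fold and 1.23-fold. *HEY1*, a repressor downstream of Notch, had 1.4003 ± 0.0829, 0.581 ± 0.2096 and 0.285 ± 0.0462 CPM (SD, n = 3), and *MAML3*, a coactivator of Notch, had ratios of 1.21-fold and 2.43-fold. The T-cell factor genes *TCF7L1* and *TCF7L2*, which act with β-catenin, had ratios of 1.37-fold and 2.04-fold and 1.21-fold and 1.26-fold.

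A group of 11 members with roles in immune and growth factor signalling, gathered after they had been seen and without *PGF* and *TGFB3*, had a median viscosity ratio of 1.75 and a median knockdown ratio of 1.39. *OSMR*, the oncostatin M receptor, had 169.7, 156 and 142 CPM in SC cells at 0.77 cP, 137, 126 and 108 CPM in SC cells at 8 cP and 70.9, 77.5 and 76.8 CPM in shTRPV4 cells, with ratios of 1.26-fold and 1.65-fold. *TNFSF9*, the ligand of 4-1BB, had 13.2 ± 0.626, 7.503 ± 0.1496 and 4.81 ± 0.524 CPM (SD, n = 3), *SOCS1*, a brake on JAK kinases, had 15.1 ± 0.707, 7.06 ± 0.529 and 5.58 ± 0.0642 CPM (SD, n = 3), and the chemokine gene *CX3CL1* had 7.02 ± 0.3201, 3.997 ± 0.273 and 2.93 ± 0.546 CPM (SD, n = 3). A further 7 junction and surface genes of epithelia were members in this mesenchymal line, *CLDN4* at 204 ± 5.49, 168 ± 10.4 and 139.98 ± 10.9 CPM and *CLDN7* at 46.4 ± 6.302, 31.8 ± 5.61 and 21.98 ± 3.05 CPM (SD, n = 3) being claudins of tight junctions. They too were picked from the members, and no share of epithelial genes was computed. The keratin genes *KRT8* and *KRT18* were not members, so no change of epithelial genes as a whole is read from this group.

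*RASD1*, a RAS-like GTPase induced by dexamethasone, was 1 of the 6 members with ratios of at least 2 at both steps, with 74.1, 91.3 and 57.5 CPM in SC cells at 0.77 cP, 33.3, 31.1 and 31.2 CPM in SC cells at 8 cP and 9.54, 9.81 and 12.2 CPM in shTRPV4 cells and ratios of 2.33-fold and 3.03-fold. The long non-coding RNA *GASAL1* had 5.97 ± 0.287, 1.83 ± 0.208 and 1.23 ± 0.137 CPM (SD, n = 3), with ratios of 3.25-fold and 1.49-fold. Per length of exon, on a TPM scale computed from the union of a gene's exons, the members with the highest mean in SC cells at 0.77 cP were *IGFBP7*, a secreted binding protein (1514 TPM), *PGK1* (1491 TPM), the phospholipid-binding protein gene *ANXA1* (886 TPM) and *ERRFI1* (879.5 TPM), followed by *JUN* (757 TPM), *BNIP3* (752 TPM) and the mitochondrial chaperone gene *FKBP8* (722 TPM). *IGFBP7* had 857, 801 and 705 CPM in SC cells at 0.77 cP, 601, 624 and 577 CPM in SC cells at 8 cP and 396, 451 and 455 CPM in shTRPV4 cells, with ratios of 1.31-fold and 1.38-fold. *ANXA1* had 1063 ± 44.2, 863 ± 53.4 and 694 ± 83.9 CPM (SD, n = 3), with ratios of 1.23-fold and 1.24-fold.

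Some features played no part in the choice. By GENCODE annotation 228 members were protein-coding (91.2%, against 89.5% of the 13177 genes) and 17 were long non-coding RNAs (6.80%, against 5.699%). Protein-coding members had a median span of 19033.5 bases and a median of 8 exon blocks, against 34141.5 bases and 11 blocks for all protein-coding genes of at least 1 CPM. Their exon lengths were closer, with medians of 5010.5 and 5520.5 bases. Chromosome 1 held 40 members, or 2.98% of its genes of at least 1 CPM, and chromosome 13 held none of 224. A total of 20 members stood in 11 pairs that lay within 100000 bases of each other. They included *TCEA3*, *ASAP3* and *ID3* on chromosome 1, *SLC2A14* and *SLC2A3* on chromosome 12, *TMC6* and *TMC8* on chromosome 17, and *SLCO4A1* with its antisense transcript *SLCO4A1-AS1* on chromosome 20. Overlap of exon bases with a gene of the same strand was annotated for 31 members and of the opposite strand for 91, and 140 members had neither. No matching counts for all genes of at least 1 CPM are given, so nothing is read from the pairs or the overlaps.

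The rule was also applied without 1 replicate number at a time, and the order of the 3 groups was then read in the samples left out. Of 257 genes chosen without the replicates numbered 1, 233 (90.7%) were in falling order in them, against 27.3% of all genes of at least 1 CPM. Of 291 chosen without those numbered 2, 263 (90.4%) were in order, against 25.5%. Of 477 chosen without those numbered 3, 339 (71.1%) were in order, against 20.6%. The share with both ratios of at least 1.2 in the left-out samples was 62.3%, 59.1% and 24.9%, against 4.64%, 3.09% and 1.72% of all genes. The shares were lowest for the samples numbered 3. These shares are descriptions of these 9 samples. Genes chosen for falls in the kept samples are set against all genes, so a higher share was likely from the start. Whether the samples of a group came from separate cultures is not known, and nothing is read from the shares about the conditions.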

How the data were processed

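RNA levels were measured for 9 samples, 3 in each of 3 groups taken from the sample titles. The authors sequenced strand-specific libraries of poly(A) RNA in pairs. Reads were mapped to GRCh38.p13 with HISAT2 2.2.1 and assigned to exons of Ensembl genes with HTSeq 0.13.5, and the raw counts per gene were deposited without normalization. The strand option is not given in the sources used here. Depth was 64571681 to 103518036 counts per sample, and the samples of a group differed beyond sampling noise.

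CPM were counts divided by the total of the file. The rule (at least 1 CPM, 1.2-fold at each step, no overlap) was applied to these. The members, the gene lists and the motifs were chosen with earlier results of these data known. For genes outside the set, edgeR 4.0.16 was fitted to all 9 samples with TMM scaling, filterByExpr (18264 genes) and 1 coefficient per group, with quasi-likelihood tests and Benjamini-Hochberg adjustment at 0.05; it was tested on simulated data. Its quasi-likelihood test reports no standard error, so those given here are the absolute log2 change divided by the square root of the F statistic. The common biological coefficient of variation was 0.0633. Genes were named by a rule: the 15 members with the largest total ratio and at least 100 counts, the 10 with the highest CPM, up to 4 members of each list with 3 or more, the genes nearest the limits, and for each such list the gene outside the set with the smallest adjusted p at each step; other genes were named after their values were seen, and some genes the rule took are not reported here. Annotation came from GENCODE 44, which matched 60463 of 60664 genes, and promoters from RefSeq (GRCh38.p14). Alternatives were other scalings (TMM, DESeq2 1.42.0 size factors), limits, DESeq2's Wald test, no filter, a replicate block and leaving out samples.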

Additional observations from a re-analysis of the deposited data

How the results depend on the processing

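The set held 284 genes with TMM scaling and 269 with DESeq2 size factors, of which 250 and 240 were members, 269 with a minimum of 0.5 CPM and 175 with one of 5 CPM. It held 36 genes at 1.5-fold, 561 at 1.1-fold and 380 with overlap allowed. Leaving out 1 sample gave 236 to 333 genes, and 141 members were kept by all 9 of these. Leaving out a replicate number in every group gave 257 to 477 genes, the largest without the samples numbered 3.

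Leaving out 1 sample gave 214 to 512 genes lower at both steps in edgeR (431 with all samples), 1409 to 4349 genes at the viscosity step (3518) and 2179 to 3836 at the knockdown step (3649). At the viscosity step the count was 1409 and 1927 without replicates 1 and 2 of the SC cells at 0.77 cP and 1418 without replicate 3 of the SC cells at 8 cP. At the knockdown step it was 2361 and 2179 without replicates 1 and 2 of the SC cells at 8 cP. DESeq2's Wald test, DESeq2 size factors and no filter on low counts kept these counts within 1.5 times (3555 to 4015, 3622 to 3902 and, for both steps, 420 to 563). The cause was not tested.

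Same-numbered samples had correlations of their deviations between -0.188 and 0.273, and the main fit did not pair samples by number. Between the SC groups these correlations were 0.164, 0.0662 and 0.273 for the numbers 1, 2 and 3. Differently numbered SC samples had -0.222 to 0.0918. What the numbers stand for is not stated, and whether the SC groups share something by number was not tested. With the replicate block, 3475 and 3607 genes were called at the steps and 414 were lower at both. Of 144 counts of list genes outside the set under other settings, 139 stayed within 1.5 times. DESeq2's Wald test moved 2 of the others, to 9 TGF-β and BMP genes lower and 5 integrin and focal adhesion genes higher at the viscosity step. The replicate block moved 3, to 0 MAP kinase feedback genes higher at the viscosity step and to 1 glycolysis gene and 1 p53 target higher at the knockdown step. The share of hypoxia windows with the HIF core was 54.5% on the strand of the gene alone, against 32.8% of all promoters. Ratios of members with few counts are limited by depth.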
